A study of Mus musculus with 22 samples.

Results

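The genes described here are 10 members of the transforming growth factor beta (TGF-beta) system: the ligands Tgfb1, Tgfb2 and Tgfb3, the receptors Tgfbr1, Tgfbr2 and Tgfbr3, the signal carrier Smad3, and the latency proteins Ltbp1, Ltbp3 and Ltbp4. They were chosen by name from the 55367 genes of the count table, with earlier results of these data known. All 10 were among the 22409 genes that passed the filter on low counts. RNA was sequenced from mouse liver cells that carry the label HSC, which commonly stands for hepatic stellate cells. CDA-HFD, a high-fat feed without choline and with defined amino acids that is used to model steatohepatitis with fibrosis, was given to the mice behind 12 libraries, and control mice on chow gave 10. Mice were killed at zeitgeber time (ZT, hours after lights on) 0, 6, 12 or 18. Each of the 4 CDA-HFD groups held 3 libraries, and the chow groups held 3 each for ZT0 and ZT18 and 2 each for ZT6 and ZT12. The labels give all mice an age of 20 weeks and a start of feeding at 8 weeks of age. Feeding lasted 12 weeks by one field, which these ages also give. Another field, of the CDA-HFD samples only, gives 6 months, which is longer than these ages allow. The labels do not say which field is wrong. The sources used here do not give strain, sex or the way the cells were isolated. They also do not say whether replicates were separate animals, so the p-values rest on a spread among libraries that may be technical.

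TGF-beta is secreted as an inactive complex in which the cytokine stays bound to its own propeptide, and a latent TGF-beta binding protein (LTBP) tethers that complex to the matrix. Once released, the cytokine is bound by the type II receptor TGFBR2, which recruits and phosphorylates the type I receptor TGFBR1, which in turn phosphorylates SMAD2 and SMAD3. TGFBR3, or betaglycan, is a co-receptor that presents ligand, TGF-beta 2 above all. In the injured liver this pathway is best known for turning stellate cells into matrix-making myofibroblasts.

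Levels are CPM, read counts scaled to each library's size after TMM normalisation. Differences are log2 changes of CDA-HFD over chow from edgeR's quasi-likelihood test. Their standard errors (SE) were derived from that test, as the absolute log2 change divided by the square root of its F statistic. A gene is called changed at a Benjamini-Hochberg adjusted p under 0.05 over all tested genes. Over all 4 times, 4 members rose (Tgfb1, Tgfb2, Tgfbr1 and Smad3), 3 fell (Tgfbr2, Tgfbr3 and Ltbp4) and 3 were not called (Tgfb3, Ltbp1 and Ltbp3). Of all tested genes, 27.5% were called higher and 24.9% lower, 52.4% in all, so a call by itself was common in these libraries. Groups of a single time hold only 2 or 3 libraries each. The share of all tested genes whose groups lay apart at a single time was not counted. The median log2 change was 0.30 over the 10 members and 0.08 over all tested genes. With library size in place of TMM the median of all genes shifted by 0.17 and the split became 7635 higher and 4557 lower, against 6161 higher and 5587 lower, while the members' 7 calls kept their direction and stayed called.

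Libraries held 19754805 to 41665623 counts in genes. Stellate markers were scarce: Lrat, which makes retinyl esters, averaged 1.78 CPM under CDA-HFD and 1.81 CPM on chow, and the summed level of 12 stellate markers was 97.3 to 218 CPM under CDA-HFD and 161 to 387 CPM on chow. Of these 12, 2 rose (Rgs5 by 3.60 and Colec11 by 1.15 on the log2 scale), 3 fell (Ecm1, Hgf and Col14a1) and 7 were not called, with a median log2 change of 0.34. The sums rested largely on 2 genes that went opposite ways. Ecm1 alone averaged 38.5 CPM under CDA-HFD and 274 CPM on chow, and Rgs5 averaged 76.2 CPM under CDA-HFD and 6.28 CPM on chow. Gfap was at 0 in 4 CDA-HFD and 3 chow libraries. The 12 endothelial markers, each detected in every library, summed to 1228 to 2904 CPM under CDA-HFD and 19230 to 37406 CPM on chow. All 12 fell, with a median log2 change of -4.10. All 12 markers of T and NK cells rose (summed level 2432 to 6402 CPM under CDA-HFD and 459 to 1851 CPM on chow), as did all 8 of B and plasma cells (515 to 1114 CPM and 131 to 253 CPM) and all 10 of neutrophils and dendritic cells (1172 to 1690 CPM and 91.6 to 689 CPM). Of the macrophage and Kupffer cell list, 9 of 12 rose and 1, Timd4, fell (1126 to 2750 CPM under CDA-HFD and 375 to 2177 CPM on chow, where every library but replicate 2 of ZT6 had 639 CPM or less). Also higher were cholangiocyte markers in 9 of 9 (1368 to 5150 CPM and 371 to 969 CPM) and hepatocyte markers in 8 of 10 (658 to 1509 CPM and 223 to 375 CPM). Of the portal fibroblast and smooth muscle markers 2 of 10 rose and 4 fell (227 to 373 CPM under CDA-HFD and 416 to 857 CPM on chow). Single genes made up much of some sums. Under CDA-HFD and on chow, Spp1 of the cholangiocyte list averaged 2293 and 485 CPM. Siglech of the neutrophil and dendritic cell list averaged 1024 and 243 CPM, and Gas6 of the portal list 107 and 506 CPM. The part of these shifts in the members' differences was not tested, and in bulk RNA fewer cells of a type and less RNA per cell cannot be told apart. Replicate 2 of chow ZT0 and replicate 1 of chow ZT18 stood apart from the other chow libraries on the first (46.65, against 95.8 or more) and second (-110.1) principal components, and values without both are given where they change a call.

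**Figure D1:**
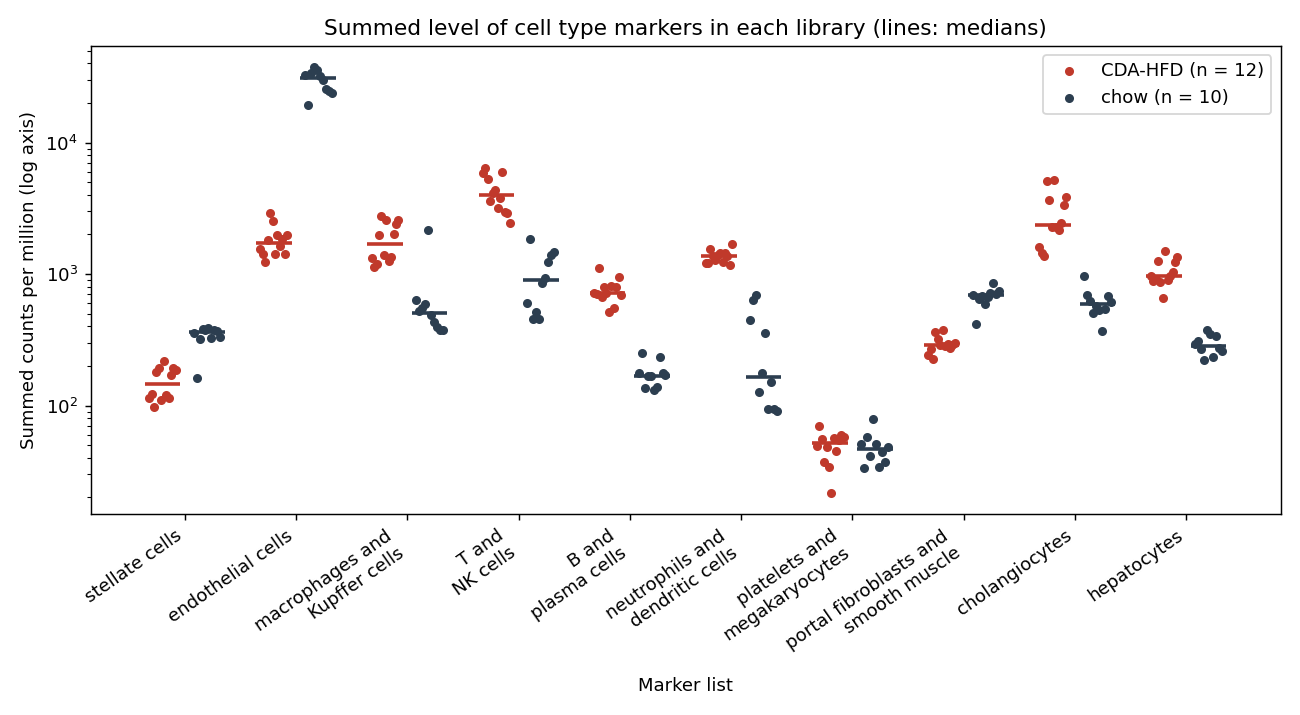
Summed CPM of the genes of each marker list (log axis) in each of the 12 CDA-HFD and 10 chow libraries, with lines at the medians. The endothelial sums do not overlap between diets, with 2904 CPM the highest under CDA-HFD and 19230 CPM the lowest on chow.

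Of the ligands, Tgfb1 and Tgfb2 rose and Tgfb3 was not called. Tgfb1, the broadly made isoform of blood and stromal cells (chr7:25687002-25705077 on GRCm38, plus strand), had 12.9 CPM in the lowest, 19.7 in the median and 23.9 in the highest CDA-HFD library. The chow libraries ran from 11.0 CPM through a median of 16.1 to 19.3. The groups overlapped, and the log2 change over all times was 0.40 ± 0.10 (SE; adjusted p = 0.00138 by edgeR). At ZT12 the groups were apart: the CDA-HFD libraries had 16.6, 18.1 and 23.8 CPM, against 11.0 and 11.3 CPM in the chow libraries (log2 0.81 ± 0.21, edgeR adjusted p = 0.00504, and 0.0542 without replicate 1 of chow ZT12). At ZT6 the difference was 0.59 ± 0.21 (edgeR adjusted p = 0.0338). It was not called with the replicate number as a block (edgeR adjusted p = 0.0556) or with no filter on low counts (0.123). Nor was it called without replicate 2 (0.0570) or 3 (0.0913) of CDA-HFD ZT6. Without replicate 1 or 2 of chow ZT6 it was 0.66 or 0.50, and without either library of chow ZT12 it was 0.58. The call was lost there too, in fits that leave 1 library in a group and also change the set of tested genes. At ZT0 (0.26 ± 0.18) and ZT18 (-0.05 ± 0.18) it was not called. The markers of platelets, a cell type rich in this ligand, summed to 21.7 to 70.1 CPM under CDA-HFD and 33.6 to 79.6 CPM on chow. Of the 7 tested genes of that list 1 rose and 1 fell. The part of platelets in the Tgfb1 difference was not tested.

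Tgfb2, an isoform known from epithelial and mesenchymal cells that depends most on the co-receptor (chr1:186622792-186705989, minus strand), had 4.18, 11.0 and 17.5 CPM as the lowest, median and highest values under CDA-HFD. On chow these values were 0.416, 5.44 and 9.88 CPM, and the groups overlapped. Its log2 change over all times was 1.04 ± 0.27 (edgeR adjusted p = 0.0030). The groups lay apart at ZT18, with 11.5, 15.5 and 13.9 CPM in the CDA-HFD libraries against 0.416, 4.15 and 5.37 CPM in the chow libraries. That ZT18 difference was 2.03 ± 0.52 (edgeR adjusted p = 0.00496). Without replicate 1 of chow ZT18, the library with 10 counts of Tgfb2, the difference over all times was 0.91 and still called. At ZT12 the CDA-HFD libraries had 17.5, 8.51 and 10.6 CPM, against 3.73 and 4.63 CPM in the chow libraries. That difference, 1.54 ± 0.59, was not called (edgeR adjusted p = 0.0571), and it was called without replicate 1 (0.00333) or 3 (0.0468) of chow ZT18 or replicate 2 of CDA-HFD ZT12 (0.0499) and without both libraries that stand apart (0.00370). It was also called by DESeq2 (0.0172), with library size only (0.0344), with no filter (0.000738), with a mean CPM of at least 5 (0.0303) and with only the 2 groups compared (0.0202). The difference was 0.66 ± 0.57 at ZT6 and -0.06 ± 0.51 at ZT0.

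The promoter of Tgfb2 is shown because it is the only one among those of the 8 members that could be searched with the E-box CACGTG, the element that the clock factors BMAL1 and CLOCK bind. The 250 bases before the RefSeq start (chr1:186705990-186706239, GRCm38.p6, minus strand) hold it 51 bases upstream, in capitals; the window also overlaps an exon of the antisense transcript Gm29491.
Tgfb2: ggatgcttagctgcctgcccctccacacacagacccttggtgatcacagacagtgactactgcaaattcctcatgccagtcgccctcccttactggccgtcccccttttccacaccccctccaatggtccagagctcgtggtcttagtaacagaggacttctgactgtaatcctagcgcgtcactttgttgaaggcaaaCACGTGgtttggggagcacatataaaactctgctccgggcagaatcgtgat
An E-box stood in 7.15% of the 32851 RefSeq promoter windows of this length plus 50 bases after the start, on either strand, and a match is a run of letters, not a site in use. Tgfb2 was not called for time in either diet (edgeR adjusted p = 0.756 under CDA-HFD and 0.374 on chow). With no filter on low counts it was called on chow (edgeR adjusted p = 0.03415), and the share of all genes called in that fit was not counted.

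Tgfb3, an isoform of mesenchymal and developing tissue (chr12:86056745-86079041, minus strand), was not called. It had 2.22, 7.03 and 13.2 CPM as the lowest, median and highest values under CDA-HFD and 4.25, 6.02 and 9.48 CPM on chow. The groups overlapped, at a log2 change of 0.19 ± 0.22 (edgeR adjusted p = 0.495), which turned to -0.06 without the ZT18 libraries. At ZT18 the 3 CDA-HFD libraries (9.73, 13.2 and 9.76 CPM) lay above the 3 chow libraries (4.25, 6.99 and 5.61 CPM), a difference of 0.95 ± 0.41 that was not called (edgeR adjusted p = 0.0890, and 0.0373 or 0.0365 without replicate 1 or 3 of CDA-HFD ZT12, 0.0481 with a mean CPM of at least 5 and 0.0313 with only the 2 groups compared).

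Among the receptors, the type II receptor and the co-receptor fell and the type I receptor rose. Tgfbr2, the ligand-binding kinase (chr9:116084293-116175360, minus strand), had 143, 178 and 205 CPM as the lowest, median and highest values under CDA-HFD, against 252, 360 and 501 CPM on chow. No CDA-HFD library reached the lowest chow library, which was replicate 2 of ZT0. The log2 change was -1.08 ± 0.07 (edgeR adjusted p = 3.11e-11), and it was called at each time, from -0.82 ± 0.13 at ZT0 to -1.44 ± 0.14 at ZT6. The promoter of Tgfbr2 is shown, as that of another member that fell, for comparison with those of Ltbp4 and Smad3 further on (250 bases before the RefSeq start, chr9:116175364-116175613, minus strand).
Tgfbr2: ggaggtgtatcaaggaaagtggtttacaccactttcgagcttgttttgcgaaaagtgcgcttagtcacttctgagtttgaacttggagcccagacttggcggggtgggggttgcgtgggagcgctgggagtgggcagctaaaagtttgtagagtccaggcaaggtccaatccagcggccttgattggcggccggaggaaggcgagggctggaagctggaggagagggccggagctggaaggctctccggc
None of the motifs searched is in it, so it has no capitals, and nothing about any factor follows from that.

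Tgfbr3, the co-receptor (chr5:107106570-107289629, minus strand), fell too. It had 6.08, 9.36 and 17.6 CPM as the lowest, median and highest values under CDA-HFD and 61.3, 96.0 and 111 CPM on chow. The groups did not overlap, and the log2 change was -3.28 ± 0.11 (edgeR adjusted p = 1.46e-15), a 9.73-fold lower level. Only 543 of the 22409 tested genes had a change as low or lower. It was called at every time, between -3.57 ± 0.22 at ZT0 and -2.98 ± 0.23 at ZT6.

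Tgfbr1, the type I kinase that passes the signal on (chr4:47353222-47414931, plus strand), had 34.6, 45.8 and 66.6 CPM as the lowest, median and highest values under CDA-HFD and 22.4, 37.1 and 52.9 CPM on chow. The groups overlapped, and the log2 change was 0.40 ± 0.11 (edgeR adjusted p = 0.00363). At ZT18 the CDA-HFD libraries had 58.0, 64.3 and 66.6 CPM, all above the chow libraries at 35.6, 52.9 and 37.2 CPM (0.59 ± 0.20, edgeR adjusted p = 0.0303). Without the 2 libraries that stand apart, that ZT18 difference was 0.48 and not called (edgeR adjusted p = 0.121). At ZT6 the difference of 0.50 ± 0.23 was not called (0.108), but was without replicate 2 of chow ZT6 (0.0222), with library size only (0.0172) and with a mean CPM of at least 5 (0.0442). The ZT18 call was also lost without replicate 2 or 3 of CDA-HFD ZT18 or replicate 1 or 3 of chow ZT18 (0.0714 to 0.124).

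**Figure D2:**
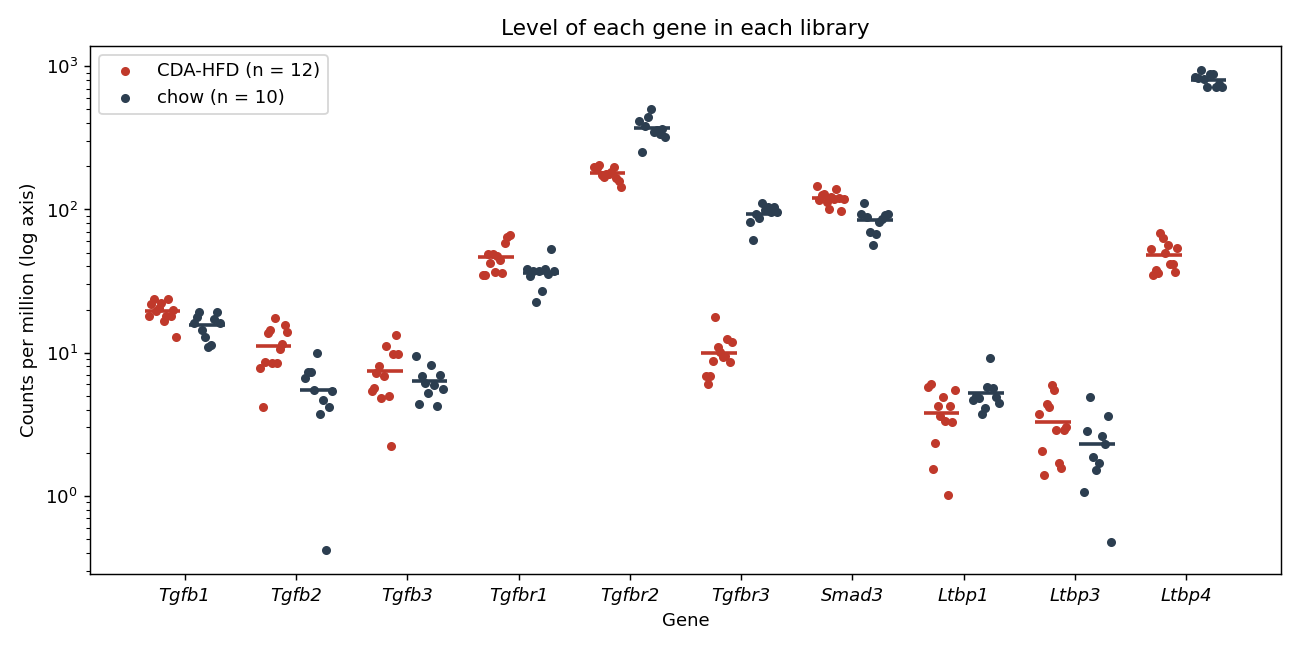
CPM (log axis) of each of the 10 genes in each of the 12 CDA-HFD and 10 chow libraries, with lines at the means. Tgfbr2, Tgfbr3 and Ltbp4 have no overlap between diets, and 1 chow library stands alone at 0.416 CPM of Tgfb2.

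Smad3, the transcription factor that the type I receptor phosphorylates (chr9:63646767-63757994, minus strand), rose. It had 97.2, 120 and 145 CPM as the lowest, median and highest values under CDA-HFD and 56.9, 87.4 and 111 CPM on chow. The ranges overlapped over all times, but within each time every CDA-HFD library lay above every chow library. With 2 or 3 libraries per group, how many of all tested genes did the same was not counted. The log2 change was 0.58 ± 0.07 (edgeR adjusted p = 4.01e-07), with 0.41 ± 0.13 for ZT0, 0.85 ± 0.15 for ZT6 and 0.76 ± 0.15 for ZT12. For ZT18 it was 0.32 ± 0.13 and not called (edgeR adjusted p = 0.0730), but called by DESeq2 (0.0388), with library size only (0.0305), with a mean CPM of at least 5 (0.0282) and without replicate 2 of CDA-HFD ZT18 (0.0353). The ZT0 call (edgeR adjusted p = 0.0195) was lost in 3 of the 22 fits that leave out 1 library, those without replicate 1 of CDA-HFD ZT0 or replicate 1 or 3 of chow ZT0 (0.0594 to 0.101), and with only the 2 groups compared (0.0564). Its promoter is shown as that of the member with the smallest p among those that rose. The 250 bases before the RefSeq start (chr9:63757995-63758244, minus strand) carry the GC box GGGCGG, a site of Sp1-type factors, at 2 places in capitals.
Smad3: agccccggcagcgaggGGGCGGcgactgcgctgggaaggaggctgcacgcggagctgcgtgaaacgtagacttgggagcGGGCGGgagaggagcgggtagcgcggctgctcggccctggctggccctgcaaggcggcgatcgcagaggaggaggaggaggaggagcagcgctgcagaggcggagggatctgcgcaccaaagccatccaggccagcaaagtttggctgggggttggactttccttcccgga
A GC box, on either strand, is in 35.7% of all RefSeq promoter windows.

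Ltbp4, the latency protein with the largest difference of all members, also had the highest level per exon length of them on chow. It lies at chr7:27305136-27337692 (minus strand), had 34.8, 45.8 and 68.5 CPM as the lowest, median and highest values under CDA-HFD, and 712, 821 and 944 CPM on chow. The highest CDA-HFD library thus stayed far under the lowest chow library. The log2 change was -4.09 ± 0.11 (edgeR adjusted p = 1.37e-16), a 17.0-fold lower level, and 152 of the 22409 tested genes had a change as low or lower. It was called at every time, between -4.38 ± 0.22 at ZT0 and -3.77 ± 0.23 at ZT6. The endothelial list had a median of -4.10, and its part in this fall was not tested. Of all tested genes, 9.78% had every CDA-HFD library below every chow library, against 3 of the 10 members. The reverse, every CDA-HFD library above, held for 7.35% of tested genes and 0 members. The members were chosen with earlier results of these data known, so these shares do not test them as a set. The promoter before the most upstream RefSeq start of Ltbp4, up to the first annotated exon (170 bases, chr7:27337693-27337862, minus strand), is shown as that of the member that fell most. Its capitals mark the GC box read on the opposite strand, CCGCCC.
Ltbp4: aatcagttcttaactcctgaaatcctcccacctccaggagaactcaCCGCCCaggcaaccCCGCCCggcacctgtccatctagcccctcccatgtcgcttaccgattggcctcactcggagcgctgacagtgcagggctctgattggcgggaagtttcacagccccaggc
Of the 8 members with a promoter in the RefSeq table, 4 had a GC box (Ltbp4, Smad3, Tgfb1 and Tgfbr1), 1 had an E-box (Tgfb2) and 1 had the AP-1 site TGAGTCA (Ltbp3; 5.2% of all windows). The element AGGTCA of the ROR and REV-ERB receptors (16.3% of all windows), the D-box of the PAR bZIP factors (0.938%) and the SMAD palindrome (0.213%) were in none of them.

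The other latency proteins were rare, and neither was called. Ltbp1, which anchors latent TGF-beta to fibrillin and fibronectin (chr17:75005568-75392512, plus strand), had 1.02, 3.91 and 6.04 CPM as the lowest, median and highest values under CDA-HFD and 3.70, 4.86 and 9.16 CPM on chow. The groups overlapped (log2 -0.45 ± 0.25, edgeR adjusted p = 0.148). At ZT12 the CDA-HFD libraries (4.88, 3.31 and 1.02 CPM) lay below the chow libraries (5.72 and 9.16 CPM), a difference of -1.28 ± 0.53 that was not called (edgeR adjusted p = 0.0741, and 0.0379 without replicate 3 of CDA-HFD ZT0 or 0.0248 without replicate 1 of CDA-HFD ZT12). Its lowest values came from 27 counts under CDA-HFD and 71 on chow, so counting error is a larger part of its spread than for Ltbp4, with 785 counts or more. Ltbp3, which also binds latent TGF-beta and is known for its part in bone and teeth (chr19:5740904-5758532, plus strand), had 1.39, 2.96 and 5.95 CPM under CDA-HFD and 0.479, 2.08 and 4.93 CPM on chow, again with overlap (0.52 ± 0.33, edgeR adjusted p = 0.206). At ZT6 its CDA-HFD libraries (4.35, 4.16 and 5.95 CPM) lay above the chow libraries (1.87 and 1.51 CPM), a difference of 1.51 ± 0.74 that was not called (edgeR adjusted p = 0.138, and 0.0228 with only the 2 groups compared).

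Divided by exon length (CPM per kilobase), the order of the levels differed between the diets. Under CDA-HFD, Tgfbr2 (21.8 ± 2.22, SD, n = 12) and Smad3 (21.8 ± 2.46) led with overlapping ranges. Then came Ltbp4 (7.39 ± 1.76) and Tgfbr1 (7.18 ± 1.71), which overlapped too. Tgfb1 (3.89 ± 0.63), Tgfb3 (2.19 ± 0.91), Tgfb2 (1.94 ± 0.67) and Tgfbr3 (1.51 ± 0.48) followed, each overlapping the next in its range, and Ltbp3 (0.36 ± 0.17) and Ltbp1 (0.36 ± 0.15) came last. On chow, Ltbp4 led (125 ± 12.6, n = 10), apart from Tgfbr2 (45.5 ± 8.43). Smad3 (15.1 ± 2.81) and Tgfbr3 (14.2 ± 2.15) overlapped, ahead of Tgfbr1 (5.52 ± 1.22) and Tgfb1 (3.08 ± 0.60). Tgfb3 (1.86 ± 0.49), Tgfb2 (0.95 ± 0.44), Ltbp1 (0.49 ± 0.14) and Ltbp3 (0.25 ± 0.14) followed, each overlapping the next in its range.

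The make-up of each family followed from these levels. Of the summed per-length level of the 3 latency proteins, Ltbp4 made up 91.1% ± 2.7 (SD, n = 12) under CDA-HFD and 99.4% ± 0.15 (n = 10) on chow. Of the 3 receptors, Tgfbr3 made up 4.97% ± 1.60 under CDA-HFD and 21.9% ± 2.51 on chow, and Tgfbr1 made up 23.5% ± 5.64 under CDA-HFD and 8.61% ± 2.14 on chow. Tgfbr2 held a like share in both, 71.5% ± 6.43 under CDA-HFD and 69.5% ± 3.76 on chow. Of the 3 ligands, Tgfb1 made up 49.6% ± 11.1 under CDA-HFD and 52.5% ± 9.04 on chow, and Tgfb2 made up 23.8% ± 6.23 and 15.8% ± 7.13. These shares were not tested.

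**Figure D3:**
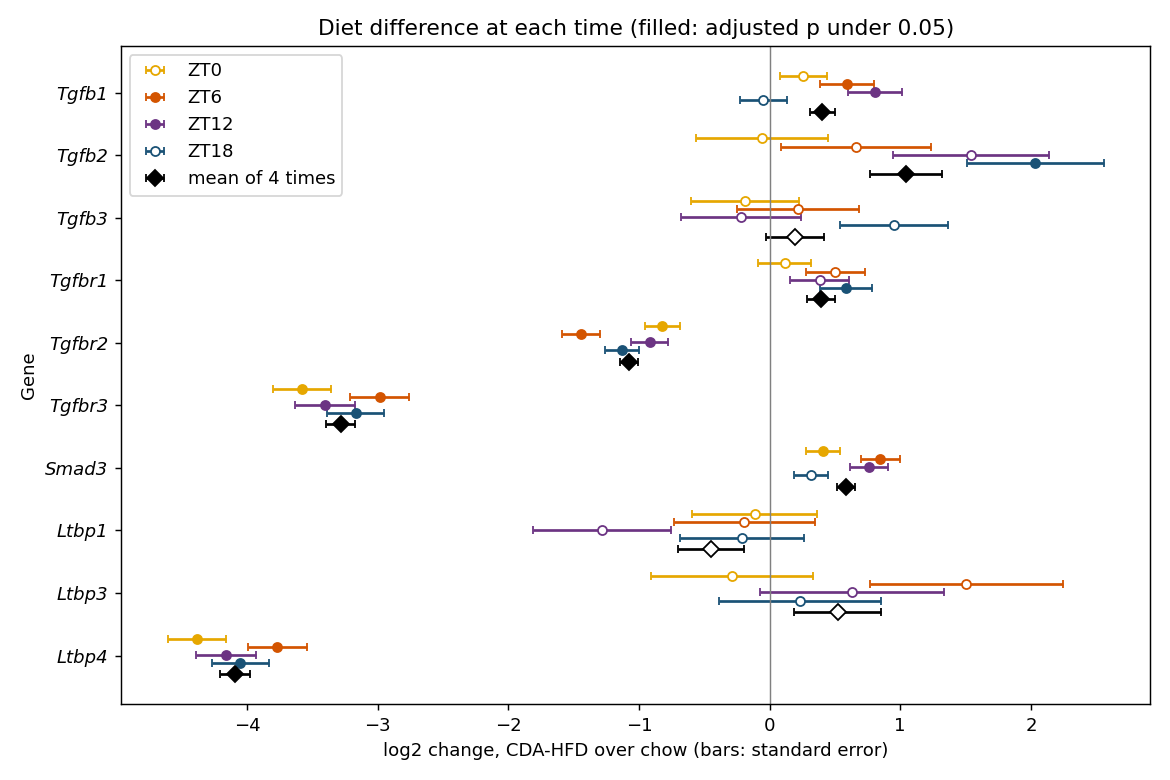
Log2 change of CDA-HFD over chow for each gene at each of the 4 times (circles) and as their mean (diamonds), with bars of 1 SE; filled symbols have an adjusted p under 0.05. Tgfbr2, Tgfbr3 and Ltbp4 are filled and negative at every time, and Tgfb1, Tgfb2, Tgfbr1 and Smad3 are filled at some times.

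The study's other question is daily time. At each single time 3 members were called lower, and these were always Tgfbr2, Tgfbr3 and Ltbp4. The background was 16.5% of tested genes lower for ZT0, 15.3% for ZT6, the same share for ZT12 and 15.5% for ZT18, and 30.0%, 30.1%, 29.6% and 30.9% called in either direction at these 4 times. Called higher were 1 member at ZT0 (Smad3; background 13.5%), 2 at ZT6 (Tgfb1 and Smad3; 14.8%), 2 at ZT12 (Tgfb1 and Smad3; 14.3%) and 2 at ZT18 (Tgfb2 and Tgfbr1; 15.3%). Whether the diet difference itself varied over the 4 times was tested by the diet by time interaction. By edgeR 0 of the 10 members passed, 4 had an unadjusted p under 0.05 (Tgfb1, Tgfb2, Tgfbr2 and Smad3, adjusted p 0.269, 0.335, 0.264 and 0.298), and 0 passed by DESeq2. Of all tested genes 0.959% passed by edgeR, and 14.5% had an unadjusted p under 0.05 by edgeR. DESeq2 passed 1464 genes. A difference in the diet effect between times is thus not shown for any member. With no filter on low counts, Tgfb2 passed (edgeR adjusted p = 0.0026), in a fit in which 2085 genes passed.

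Among the times on chow, 1 member was called by edgeR, against 5.74% of all tested genes. Smad3 had 92.6, 111 and 89.2 CPM in the ZT0 libraries and 69.3 and 56.9 CPM in those of ZT6. The ZT12 libraries had 67.8 and 81.9 CPM and the ZT18 libraries 85.7, 91.5 and 93.1 CPM. The ZT6 and ZT12 libraries were all lower than those of ZT0 and ZT18 (edgeR adjusted p = 0.0397). The call was lost in 9 of the 22 fits without 1 library (adjusted p 0.0503 to 0.250), namely replicate 3 of CDA-HFD ZT0, replicate 2 of CDA-HFD ZT6, replicate 2 of chow ZT0, either of chow ZT6, replicate 1 of chow ZT12 and any of chow ZT18, with the replicate block (0.0620), without both libraries that stand apart (0.0641) and with 24 h cosine terms (0.0867). In the same chow groups the summed T and NK markers averaged 970, 486, 897 and 1375 CPM from ZT0 to ZT18, and the endothelial markers 28693, 36600, 30873 and 24603 CPM. The library with the lowest Smad3, replicate 2 of chow ZT6, was also the one with 2177 CPM of macrophage markers. Fits without either library of chow ZT6, or without replicate 1 of chow ZT12, leave 1 library in a group and also change the set of tested genes. The part of these markers in the Smad3 difference was not tested. Tgfb1 on chow averaged 17.7, 13.7, 11.1 and 17.6 CPM over the same times (adjusted p = 0.118 by edgeR and 0.0279 by DESeq2). Tgfbr2 averaged 352, 472, 352 and 341 CPM (adjusted p = 0.135 by edgeR and 0.0320 by DESeq2). Its edgeR adjusted p was 0.00634 without replicate 2 of chow ZT0 and 0.0150 without both libraries that stand apart. The share of all genes that DESeq2 called among the times on chow was not counted.

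Among the times under CDA-HFD, 0 of the 10 members were called by edgeR, against 1.08% of all tested genes. At an unadjusted edgeR p under 0.05 there were 2, Tgfbr1 and Tgfbr3, against 11.8% of all tested genes. DESeq2 called 1, Tgfbr3 (adjusted p = 0.0134), and its share over all genes was not counted. Tgfbr1 averaged 39.6, 42.4, 42.6 and 63.0 CPM from ZT0 to ZT18, with every ZT18 library above all others (edgeR adjusted p = 0.205). Tgfbr3 averaged 6.58, 12.4, 9.59 and 11.0 CPM, with every ZT0 library below all others (edgeR adjusted p = 0.10, and 0.0359 without replicate 1 of CDA-HFD ZT6 or 0.0474 without replicate 2 of chow ZT0). The endothelial markers averaged 1401, 2414, 1684 and 1756 CPM in these groups, and their part in the Tgfbr3 values was not tested. Ltbp4 averaged 41.8, 55.9, 49.2 and 44.0 CPM (edgeR adjusted p = 0.667).

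**Figure D4:**
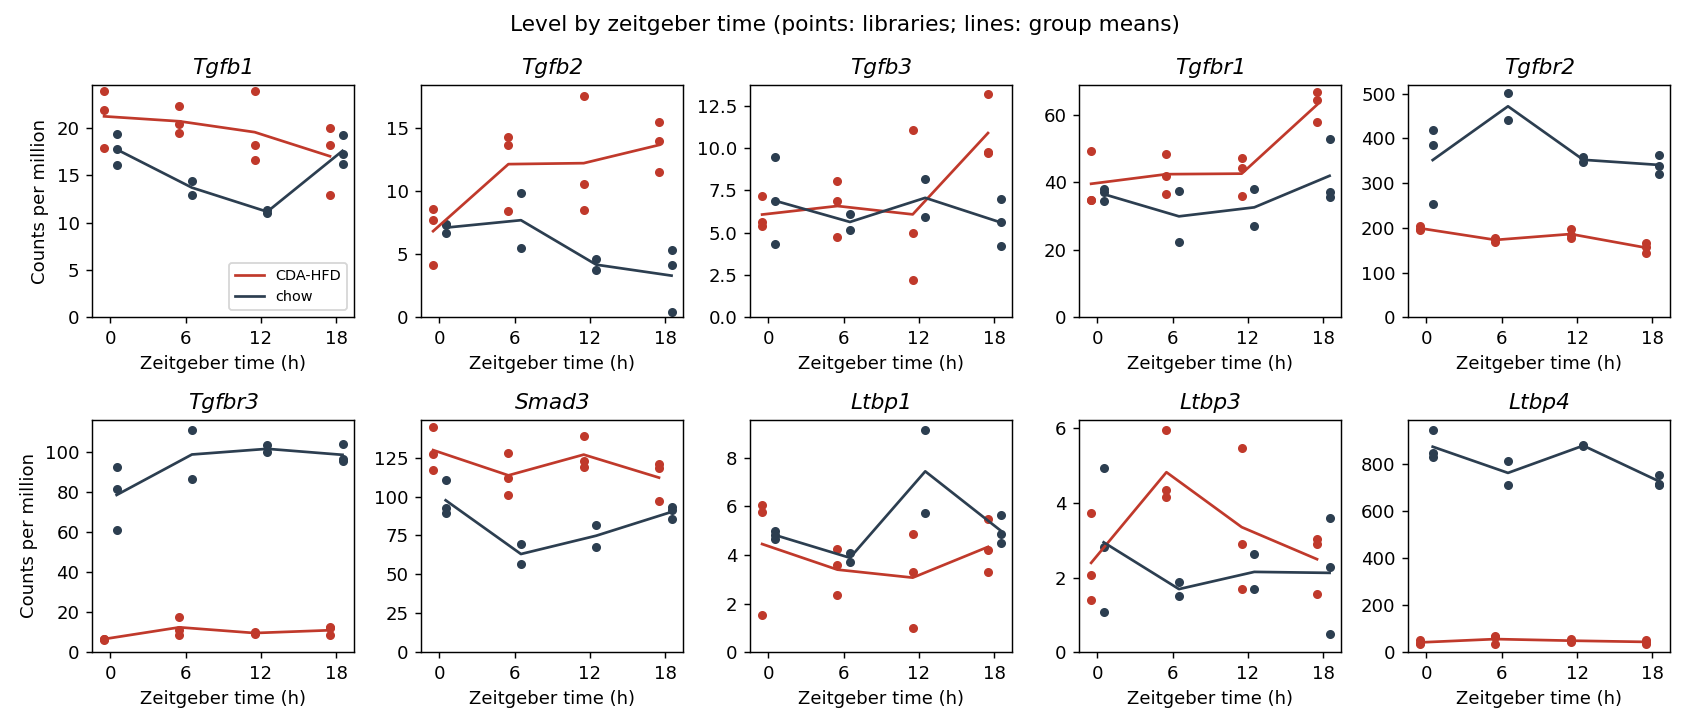
CPM of each gene against zeitgeber time in hours, with a point for each library and lines through the group means (3 libraries per CDA-HFD group, 2 or 3 per chow group). Smad3 on chow is lowest at ZT6 and Tgfbr1 under CDA-HFD highest at ZT18.

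Other genes of the pathway were read from 5 lists with 68 tested genes. Of these, 18 rose, 34 fell and 16 were not called over all times, with a median log2 change of -0.44. Over all tested genes 27.5% were called higher and 24.9% lower, with a median of 0.08. Whether any list differed from this background was not tested. Of 12 matrix anchors and carriers of latent TGF-beta, 3 rose and 8 fell (median -1.34). Lrrc32, which holds latent TGF-beta on the cell surface, averaged 11.6 ± 3.69 CPM under CDA-HFD and 150 ± 37.5 CPM on chow (-3.75 ± 0.14), and its macrophage counterpart Nrros changed by -0.25 ± 0.09 (edgeR adjusted p = 0.0182). Emilin1, an elastic fibre protein (-3.66 ± 0.11), Bgn, a small proteoglycan that binds the cytokine (-3.35 ± 0.12), and Fbn1, the fibrillin to which LTBPs attach (-1.34 ± 0.17), fell, and Fbn2 was not called (-0.44 ± 0.60). Ltbp2, an LTBP that does not bind the latent complex, had 1.81 ± 0.99 CPM under CDA-HFD and 0.696 ± 0.53 CPM on chow and rose (1.34 ± 0.54, edgeR adjusted p = 0.0419).

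Genes that release the cytokine went both ways, with 6 of 14 higher and 5 lower (median -0.14). The integrin subunit Itgav averaged 61.8 ± 10.7 CPM under CDA-HFD and 21.5 ± 6.62 CPM on chow (1.59 ± 0.13), and the activator Thbs1 rose by 1.71 ± 0.22. The subunits Itgb6 (3.0 ± 0.56) and Itgb8 (2.86 ± 0.42), which pair with Itgav and bind the propeptide, rose too, at 4.59 and 4.79 CPM under CDA-HFD and 0.640 and 0.785 CPM on chow; these, with Nrros and Ltbp2, were singled out after their values were seen. Mmp14, a membrane protease, fell by 2.32 on the log2 scale, and the common subunit Itgb1 by 0.73. Itgb3, the proprotein convertase Furin and Bmp1 were not called (-0.09 ± 0.11, -0.20 ± 0.20 and -0.19 ± 0.30).

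Co-receptors and receptor regulators fell in 9 of 13 and rose in 2 (median -1.15). Eng, the endothelial co-receptor endoglin and itself 1 of the endothelial markers, had a change of -4.07 ± 0.12. Dab2, an endocytic adaptor, changed by -3.49 ± 0.12, the BMP receptor Bmpr2 by -2.89 ± 0.10, and Fkbp1a, which keeps the type I receptor silent, by -2.04 ± 0.08. Strap (-0.01 ± 0.06) and Cd109 (-0.44 ± 0.75) were not called.

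In the SMAD chain 6 of 15 rose and 6 fell (median -0.11). The co-repressors Tgif1 (89.4 ± 20.4 CPM under CDA-HFD and 23.5 ± 6.75 CPM on chow, 2.0 ± 0.08) and Skil (1.5 ± 0.10) rose. The inhibitory Smad6 (-2.97 ± 0.15) and the common partner Smad4 (-0.82 ± 0.08) fell. Smad7 (-0.11 ± 0.09), Trim33 (0.13 ± 0.09) and Crebbp (-0.19 ± 0.08) were not called. Of 14 tested genes that TGF-beta induces in fibroblasts, 1 rose, 6 fell and 7 were not called (median -0.73). The one that rose was Tgfbi, a matrix adhesion protein that macrophages also make, with 60.3 ± 15.5 CPM under CDA-HFD and 23.3 ± 5.45 CPM on chow (1.38 ± 0.13). The transcription factors Snai2 (-2.53 ± 0.22) and Snai1 (-2.06 ± 0.28) and the collagen Col3a1 (-1.09 ± 0.27) fell. All standard deviations in these lists are over 12 CDA-HFD and 10 chow libraries, and the calls are by edgeR.

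**Figure D5:**
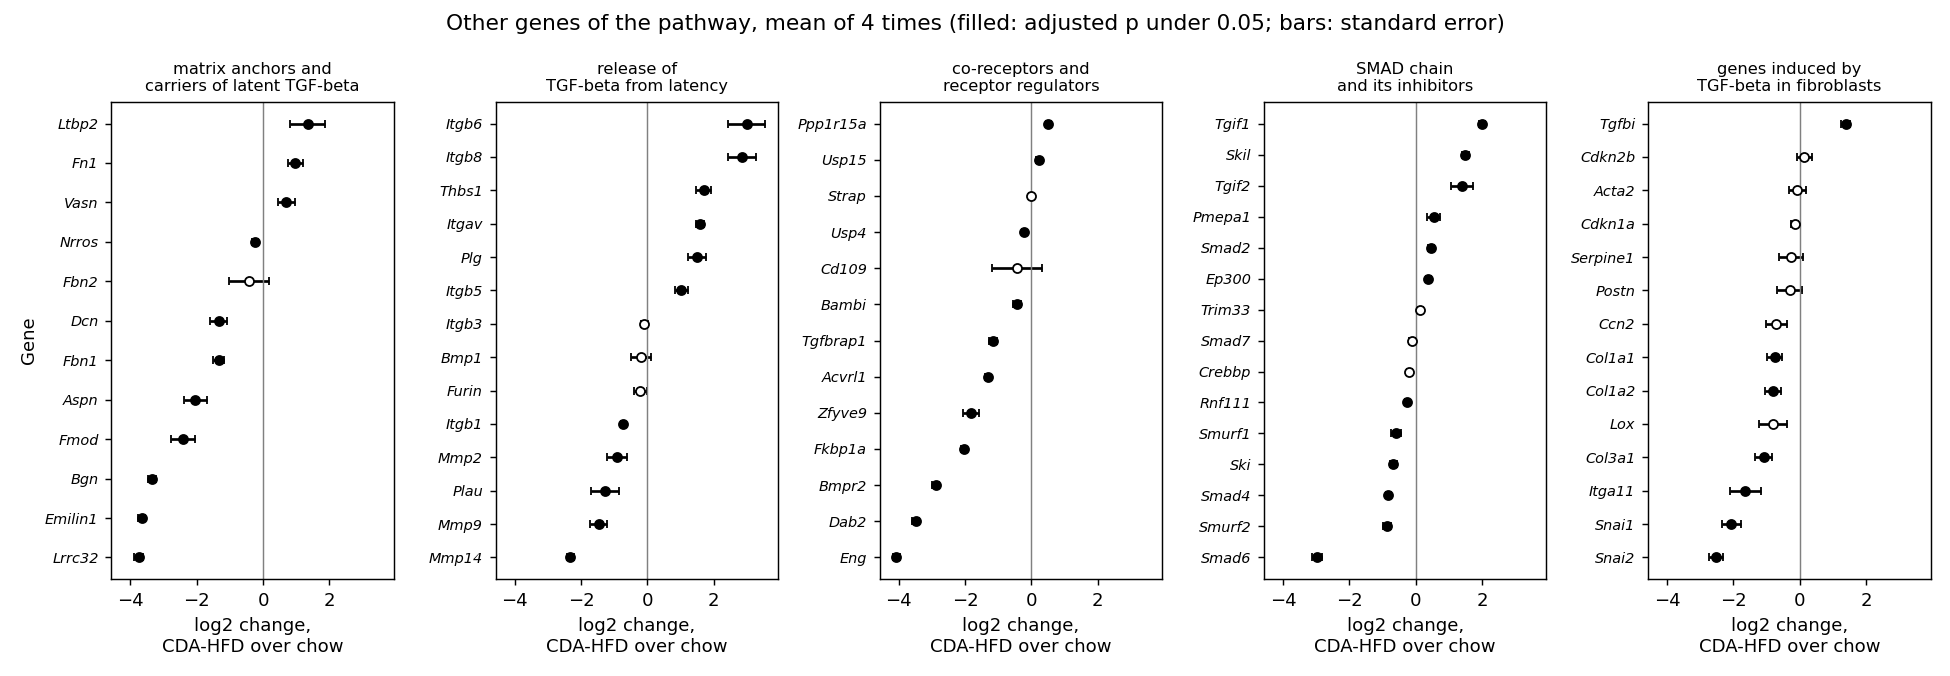
Log2 change of CDA-HFD over chow, as the mean of 4 times with bars of 1 SE, for the 68 tested genes of the 5 pathway lists; filled symbols have an adjusted p under 0.05. The changes run from -4.07 (Eng) to 3.0 (Itgb6).

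Likeness of pattern was measured as Pearson's r of log2 CPM over the 22 libraries after the 8 group means were removed, so that neither diet nor time enters, among 7182 genes of adequate level. It is given as a description, since libraries share depth and cell make-up. The genes named are the highest of 7182, picked from 22 libraries less 8 group means. Values that high can arise from such a search alone, and how high they would run was not tested. Nearest to Ltbp4 were Hecw2 (0.84), Cyp4b1 (0.82) and Tspan18 (0.80), and to Tgfbr3 Tmem41a (0.83), Ap1b1 (0.83) and Cdh5 (0.83). Nearest to Tgfb1 were Prkcq (0.88), Krcc1 (0.82) and Chd1 (0.82), and to Smad3 Leng8 (0.78), Arid2 (0.78) and Noc4l (0.73). Tgfbr1 was nearest to Xpr1 (0.83), Clpx (0.81) and Tmem185a (0.79), Tgfb3 to Pgd (0.86), Bcl9 (0.80) and Rhbdf1 (0.79), Ltbp1 to Pdgfd (0.78), Ppt1 (0.77) and Col4a1 (0.74), and Ltbp3 to Tmem184c (0.84), Mrpl11 (0.76) and Stk16 (0.74). For the other members the likeness rested on the libraries that stand apart. Tgfb2 with Fam50a, Gmps and Dph1 had 0.84, 0.84 and 0.83, and 0.22, 0.19 and 0.38 without them. Tgfbr2 with Rhoa, Adam10 and Rab1a had 0.88, 0.88 and 0.87, and 0.33, 0.66 and 0.54 without them. Among the members themselves the highest value was that of Tgfbr3 and Ltbp4 (0.61, and 0.63 without those libraries), and the lowest that of Tgfb1 and Ltbp1 (-0.62).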

How the data were processed

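The submitters' processing notes name STAR 2.7.9a, HTSeq, DESeq2 and the build GRCm38 (mm10); annotation and strand setting have no source here. The deposited table of whole-number read counts per gene symbol was used, and columns were tied to samples through the labels' description field. Counts were tested with edgeR 4.0.16 (R 4.3.3): genes kept by filterByExpr over 8 groups, TMM scaling, and glmQLFit with glmQLFTest on 1 mean per group. The spread was estimated over all 22 libraries, since 2 chow groups have only 2. Contrasts were the diet difference over all times and at each time, and F tests over times in each diet and of the interaction. Log2 CPM for likeness used a prior count of 2.

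Members, lists, tests and the 2 libraries that stand apart were chosen with earlier results of these data known. Named pathway genes are up to 4 of each list with the smallest adjusted p, and every gene not called where these are 5 or fewer. For each member the 3 nearest genes with a mean log2 CPM of at least 4 are named. Ctgf is the older symbol of Ccn2, and Tagln did not pass the filter. Coordinates and exon lengths come from GENCODE M21 (GRCm38) and promoters from RefSeq (GRCm38.p6), 250 bases before and 50 after each start; 8 of the 10 members matched, not Tgfb3 and Tgfbr3. Motifs were searched on both strands. Alternatives were RLE scaling, library size only, no filter, a CPM mean of 5 or more, a replicate block, DESeq2 1.42.0, each library or time left out, 2 libraries left out, only the groups compared, and 24 h cosine terms.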

Additional observations from a re-analysis of the deposited data

Results flagged for a closer look

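In the 10 chow libraries, 3 members had a library far from the others on the log2 CPM scale, of 10 members examined. The cutoff used (0.466) flags about 1 in 20 groups drawn from a single normal distribution. The share of all tested genes flagged in this way was not counted, so the 3 do not set the members apart. Each value is the gap to the nearest library as a share of the whole range. For Tgfb2 the library was replicate 1 of ZT18, at 0.416 CPM (a share of 0.692). For Tgfbr3 it was replicate 2 of ZT0, at 61.3 CPM (0.483), in which the endothelial markers also had their lowest chow sum (19230 CPM) and the T and NK markers their highest (1851 CPM). For Ltbp1 it was replicate 2 of ZT12, at 9.16 CPM (0.518). The chow libraries span 4 times, so a difference between times can add to such a gap, and the 1 in 20 need not hold for them. The libraries flagged for Tgfb2 and Tgfbr3 are also those that stand apart on the principal components.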

How the results depend on the processing

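Over all times, none of the 10 members changed its call under any of up to 33 alternatives, and the direction turned only for Tgfb3, to -0.057 without the ZT18 libraries. The counts of members called higher stayed at 4 and lower at 3 in all 22 fits without 1 library. Leaving out 1 library gave 0 to 1 members called higher at ZT0, 1 to 2 at ZT6, 1 to 3 at ZT12 and 1 to 3 at ZT18, 3 to 4 called lower at ZT12, 0 to 1 called among times on chow and 0 to 1 among times under CDA-HFD. The count called higher was 0 at ZT0 with only the 2 groups compared, 1 at ZT6 with no filter and with the replicate block, and at ZT18 it was 4 with a mean CPM of at least 5 and 1 without both libraries that stand apart. Among times under CDA-HFD the count was 1 with library size only, 2 with no filter and 1 by DESeq2. On chow it was 2 with library size only, 2 with no filter, 3 by DESeq2, 0 with the replicate block and 0 with cosine terms. In the main fit 1.08% of all tested genes were called among times under CDA-HFD and 5.74% on chow. For single times and among times, the shares of all genes called under the other settings were not counted. The members' counts there thus have no background to be read against. The interaction count was 1 with no filter. Over all genes the interaction called 215, against 2085 with no filter, 1464 by DESeq2, 123 with the replicate block and 1004 without both libraries that stand apart. The causes were not tested.

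Uncalled differences that turned direction were Tgfb2 at ZT0 (0.061 with library size only, 0.016 with a mean CPM of at least 5), Ltbp1 at ZT6 (0.070), Tgfb3 at ZT12 (0.0029) and Tgfb1 at ZT18 (0.071) with library size only, and Tgfb1 at ZT18 with a mean CPM of at least 5 (0.00027). Without 1 library the differences at ZT0 ran from -0.39 to 0.29 for Ltbp1, -0.76 to 0.35 for Ltbp3, -0.25 to 0.20 for Tgfb2, -0.43 to 0.11 for Tgfb3 and -0.072 to 0.20 for Tgfbr1. They ran from -0.39 to 0.016 for Ltbp1 at ZT6, -0.97 to 0.18 for Tgfb3 at ZT12, -0.24 to 0.85 for Ltbp3 at ZT18 and -0.18 to 0.12 for Tgfb1 at ZT18.

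Replicate numbers did not pair the libraries: of 10 same-numbered pairs at the same time, 0 had a correlation of deviations over 0.1 (-0.143 to 0.045), and 3 of 22 libraries correlated best with their own number. A mean CPM of at least 5 removed Ltbp1 and Ltbp3. Where 1 library was left of a group of 2, it was assumed to vary like the other groups. The filter on low counts also kept more genes in such fits, so their adjusted p-values are over another set of genes. Low counts limit Ltbp1, Ltbp3 and Tgfb2.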
